A study of Macaca fascicularis with 3 samples.

Results

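miR-204 and miR-211 are related microRNAs (miRNAs), small RNAs that guide silencing complexes to messenger RNAs. Their members were found by name: of the 432 mature miRNAs listed in the raw table, 3 had the stem miR-204 or miR-211. These were mfa-miR-204-5p and mfa-miR-204-3p, the products of the 5′ and 3′ arms of the miR-204 hairpin, and mfa-miR-211, listed without an arm (mfa stands for the species). The authors' normalized table paired miR-204-5p and miR-211 with the same human miRNA, miR-204-5p, and paired miR-204-3p with human miR-204-3p. The small RNA libraries came from kidney cortex, the outer layer of the organ, of 3 naïve cynomolgus monkeys (Macaca fascicularis) between 2 and 3 years old, 1 library for each. All libraries formed 1 group with no treatment, so the comparisons are between miRNAs and between animals. With 1 library per animal, a difference between animals, between the pieces of cortex and between library preparations cannot be told apart.

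miR-204 is known to lie in an intron of TRPM3, a cation channel gene, and miR-211 in an intron of the related gene TRPM1, the melastatin gene of pigment cells. The main products of both hairpins share their seed, the stretch near the 5′ end that selects targets, and differ at few bases outside it. miR-204-5p is known from the retinal pigment epithelium, the choroid plexus and the kidney, where it is abundant in tubular epithelium, and it is studied for its role in keeping epithelial cells differentiated. Of a hairpin's arms, the guide is usually kept in the silencing complex, and the opposite, passenger arm is mostly degraded.

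Counts on listed miRNAs summed to 4305977 for animal 1, 4707892 for animal 2 and 3957188 for animal 3. A floor of 3 counts is 0.697, 0.637 and 0.758 CPM (counts per 1000000 listed counts) in this order. The library of animal 3 stood apart. Measures of spread used the 391 miRNAs that averaged 10 or more counts, scaled by the trimmed mean of M values (TMM). Deviations of an animal from the mean of the others were taken on log2(TMM-scaled CPM + 1). In animal 3, 26 of the 391 miRNAs lay 2 or more below the mean of the other animals. Only 2 did so in each of animals 1 and 2. The levels, spans and arm ratios below that rest on animal 3 are given with and without it. Kidney miRNAs fixed as a list (miR-192, miR-194 and miR-215) were present at 8292 to 9625 CPM in sum. Of the lists of other cell types, vascular miRNAs (71708 to 85190 CPM) and epithelial miRNAs (16281 to 20903 CPM) were high. miR-126 made 55.6% of the mean vascular sum. No listed name was found for miR-200b or miR-141 of the epithelial list, so its sum leaves them out. Lists for liver (4.04 to 8.82 CPM), pancreatic islet (67.6 to 136 CPM) and neuron (107 to 131 CPM) were low. The sensory organ list, which includes the retina, had 582 to 776 CPM. No library had a list at 0, and their part in the levels below was not tested. In a piece of tissue, fewer cells of a type and less RNA per cell cannot be told apart.

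miR-204-5p, the guide of the miR-204 hairpin, was among the most abundant miRNAs of the cortex. Its counts were 203899 for animal 1, 252235 for animal 2 and 171914 for animal 3. With Wilson 95% limits, its share of the listed counts was 4.74% (4.72 to 4.76) for animal 1, 5.36% (5.34 to 5.38) for animal 2 and 4.34% (4.32 to 4.36) for animal 3. Such intervals cover counting error only and take each read as independent. The reads carry no molecular identifiers, so amplified copies cannot be told apart. Animal 2 was highest and animal 3 lowest, and the intervals did not overlap. The mean was 48124 CPM ± 5111 (SD, n = 3), and miR-204-5p ranked 7th, 3rd and 4th of the 432 names in animals 1, 2 and 3.

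miR-211 was much lower. It had 1224, 2918 and 1200 counts, or 284, 620 and 303 CPM, with a mean of 402 CPM ± 188 (SD, n = 3). Animal 2 stood above the others, whose values lay close together. miR-211 ranked 126th, 96th and 120th in animals 1, 2 and 3. miR-204-3p, the passenger arm, was the lowest of the members. It had 437 and 529 counts in animals 1 and 2, or 101 and 112 CPM, but 19 counts in animal 3, or 4.80 CPM (Wilson 95% confidence interval 3.07 to 7.50). Its rank was 178th, 177th and 334th. Its mean of 72.9 CPM ± 59.2 (SD, n = 3) therefore describes no single animal, and without animal 3 it was 107 CPM ± 7.69. The order miR-204-5p, miR-211, miR-204-3p held in 3 of 3 animals.

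**Figure D1:**
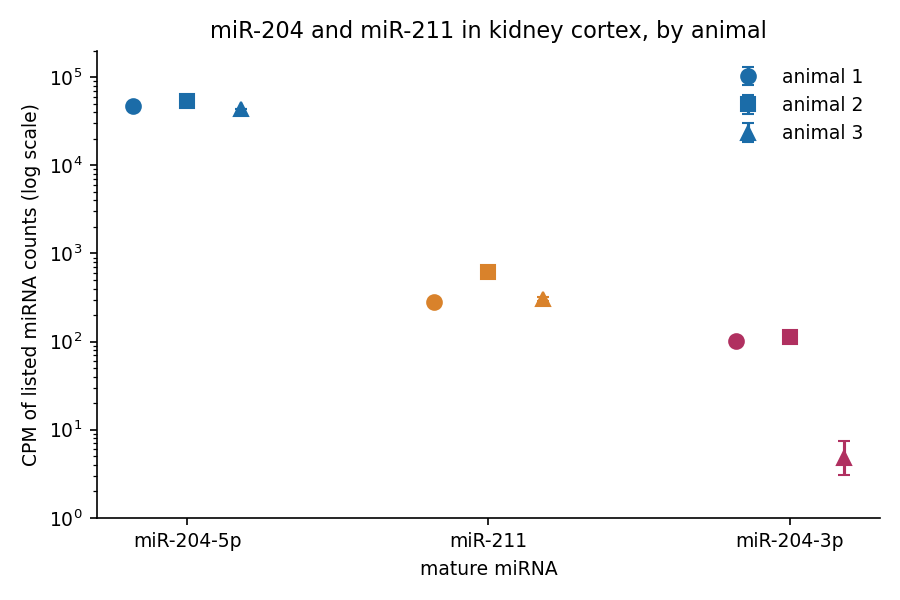
CPM of listed miRNA counts (log scale) for miR-204-5p, miR-211 and miR-204-3p, with 1 point per animal and Wilson 95% intervals of the counting error. miR-204-5p lies between 43444 and 53577 CPM in the 3 animals, and miR-204-3p falls from 101 and 112 CPM in animals 1 and 2 to 4.80 CPM in animal 3.

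The place of miR-204-5p was then set against its neighbours in the order of mean CPM and against the other kidney miRNAs. Mature miRNAs differ little in length, so CPM was compared without a length correction, but the efficiency with which each miRNA enters a library was not measured. Next above it were miR-30a-5p with a mean of 65955 CPM ± 13180 (SD, n = 3) and miR-30c-5p with 48682 CPM ± 5121, both of a family abundant in kidney. Next below were miR-26a-5p with 46727 CPM ± 8237 and miR-126, an endothelial miRNA, with 43515 CPM ± 5497. miR-30a-5p was higher than miR-204-5p in all 3 animals, by a mean log2 difference of 0.44 ± 0.40. The other neighbours changed places with it between animals. miR-204-5p was above miR-30c-5p in 1 of 3 animals, above miR-26a-5p in 2 and above miR-126 in 2. Its rank among these 3 is therefore not resolved.

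The kidney list lay well below. Counts of miR-194-5p were 21089, 20891 and 20777 by animal, and its mean of 4862 CPM ± 408 (SD, n = 3) left miR-204-5p 9.90 times higher. miR-192-5p, which shares a cluster with a copy of miR-194, had 20150, 18065 and 17251 counts, and miR-204-5p was 11.2 times higher. miR-215-5p, which belongs to the same seed family as miR-192, had 104, 84 and 58 counts. On the log2 scale miR-204-5p exceeded these miRNAs by 3.31 ± 0.27, 3.49 ± 0.28 and 11.34 ± 0.35 (SD), in 3 of 3 animals each. The exact two-sided sign-flip permutation test gave p = 0.25 for each, the smallest that 3 animals allow (0.643 after Benjamini-Hochberg adjustment over 18 pairs of miRNAs). miR-211 stood between miR-183-5p and miR-1-3p above it and miR-18a-5p and miR-20b-5p below it. These neighbours had means from 391 to 417 CPM, and each was above miR-211 in 2 of 3 animals and below it in animal 2. miR-204-3p stood between miR-299-3p and miR-598-3p above and miR-654-3p and miR-200a-5p below. It was above miR-299-3p and miR-654-3p in 1 of 3 animals and above miR-598-3p and miR-200a-5p in 2. These places are therefore not resolved either. The exact permutation p ran from 0.75 to 1, but with 3 animals this test could not have resolved them.

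How far each member varied between animals was measured as the span, which is the largest TMM-scaled CPM divided by the smallest. For miR-204-5p the span was 1.10-fold, from 46196 TMM-scaled CPM in animal 3 to 50934 in animal 2. The median over the 391 miRNAs was 1.71-fold, and only 8 of them had a smaller span than miR-204-5p. Among the 20 most abundant miRNAs its span was the smallest under TMM and under DESeq2 size factors. It was the 7th smallest with library totals alone and the 10th smallest in the authors' normalized values, which are not scaled for library size. Under DESeq2 size factors animal 1 and not animal 3 was lowest, with a span of 1.06-fold, so only the place of animal 2 as the highest held under every scaling tried.

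miR-211 spanned 2.10-fold, with 281, 589 and 322 TMM-scaled CPM in animals 1, 2 and 3. Animal 2 was 2.10-fold above animal 1 (exact 95% counting interval 1.96 to 2.24) and 1.83-fold above animal 3 (1.71 to 1.96). Animals 1 and 3 differed by 1.15-fold (1.06 to 1.24). Without animal 2 the span of miR-211 was 1.21-fold, and without animal 1 it was 1.83-fold, so its place just past 2-fold rests on those libraries. miR-204-3p spanned 20.9-fold, with 100 and 107 TMM-scaled CPM in animals 1 and 2 and 5.11 in animal 3. It was 19.7-fold higher in animal 1 than in animal 3 (12.4 to 33.0) and 20.9-fold higher in animal 2 (13.3 to 35.0). Animals 1 and 2 differed by 1.06-fold, with an interval of 0.94 to 1.21 that includes no difference. Only 7 of the 391 miRNAs had a larger span. Among the 124 miRNAs averaging between 100 and 1000 counts, only miR-324-5p and miR-502-3p spanned more.

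A span above 2-fold was found for 39.9% of the 391 miRNAs, and 2 of the 3 members passed it. The chi-square test of homogeneity over libraries, with Benjamini-Hochberg adjustment and a threshold of 0.05, called 80.6% of the 391 miRNAs and all 3 members. This test compares the 3 libraries, and at the depth of miR-204-5p it called even a 1.10-fold span. The share called over all miRNAs is so high that the calls say little about the members. Without animal 3 the test no longer called miR-204-3p (chi-square with Benjamini-Hochberg adjusted p = 0.445), while miR-204-5p and miR-211 stayed past the threshold with any 1 animal left out.

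**Figure D2:**
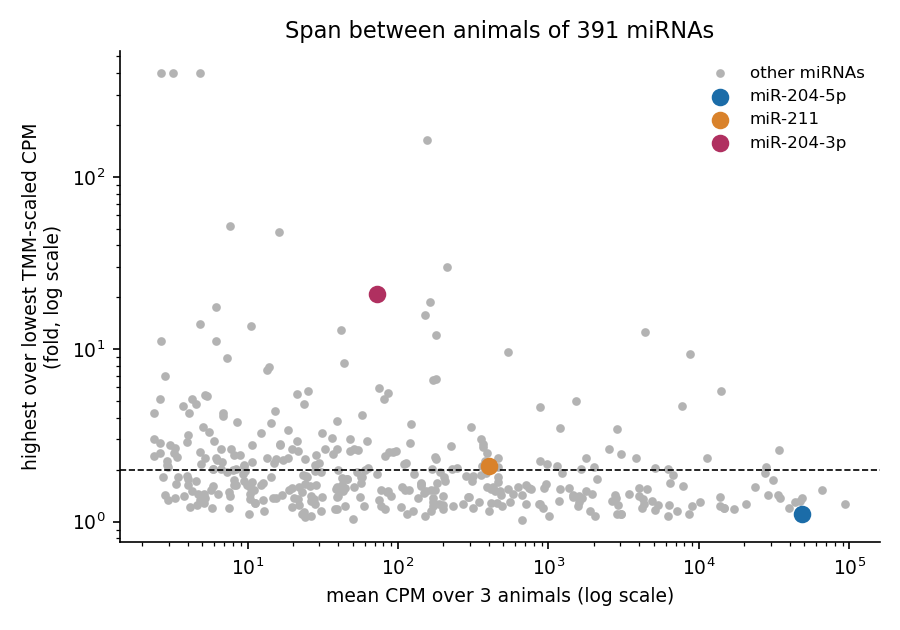
Span of TMM-scaled CPM between the 3 animals (fold, log scale) against mean CPM (log scale) for 391 miRNAs, with the members in colour, a dashed line at 2-fold, and 3 miRNAs with 0 counts in a library drawn at 400. miR-204-5p lies at the lower edge with 1.10-fold, miR-211 at the line with 2.10-fold and miR-204-3p far above it with 20.9-fold.

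The arms of the miR-204 hairpin come from the same precursor, and their ratio within a library needs no scaling between libraries. In animals 1 and 2 there were 467 reads of miR-204-5p per read of miR-204-3p (exact 95% counting interval 425 to 514) and 477 (438 to 520). In animal 3 there were 9048 (5794 to 15029). Of the hairpin's reads, the 3p arm made 0.214% (Wilson 95% limits 0.195 to 0.235) for animal 1, 0.209% (0.192 to 0.228) for animal 2 and 0.0111% (0.00708 to 0.0173) for animal 3. Animals 1 and 2 overlapped, and animal 3 lay far below both. At the pooled share of animals 1 and 2, the hairpin's reads in animal 3 would have held 363 reads of the 3p arm, against the 19 counted.

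On the log2 scale, after adding 0.5 to both counts, the 5p arm exceeded the 3p arm by 8.86, 8.90 and 13.11 in animals 1, 2 and 3, with a mean of 10.29 ± 2.44 (SD, n = 3). Without animal 3 the mean was 8.88 ± 0.02. Among the 122 hairpins with both arms listed, the miR-204 hairpin ranked 12th from the most 5p-biased in animals 1 and 2 and 3rd in animal 3. By mean ratio it was 8th, and the highest were the hairpins of miR-30d, miR-10a, miR-424, miR-10b and miR-191. The chi-square test of the arm counts over libraries, adjusted over 109 hairpins with an expected count of at least 5 in every cell, called 71.6% of them, the miR-204 hairpin included. Without animal 3 it did not call the miR-204 hairpin (chi-square with Benjamini-Hochberg adjusted p = 0.784).

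By size, the ratio of the miR-204 hairpin ranged over 4.24 log2 units between animals, the 5th widest of 122, and 27.9% of the hairpins ranged over more than 2. Between animals 1 and 2 alone it ranged over 0.03, and only 3 of the 122 hairpins ranged less. The hairpins with wider ranges were those of miR-324, miR-127, miR-20b and miR-143. In the miR-324 hairpin the major 5p arm was the one that was low in animal 3, with 409, 1735 and 8 counts by animal. Its ratio in animal 3 rests on these 8 reads and 6 of the 3p arm. For the hairpins of miR-20b and miR-127 the minor arm was also lowest in animal 3, as with miR-204, but on few reads. miR-20b-3p had 10, 16 and 0 counts, and miR-127-5p had 11, 18 and 0. With 0 counts in animal 3, the width of their ranges depends on the amount added to the counts. The place of the miR-204 hairpin behind miR-20b and miR-127 is therefore not resolved. For the miR-143 hairpin the log2 ratio moved the other way, from -11.84 and -12.06 in animals 1 and 2 to -7.07 in animal 3, so that its minor 5p arm made a larger share in animal 3.

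**Figure D3:**
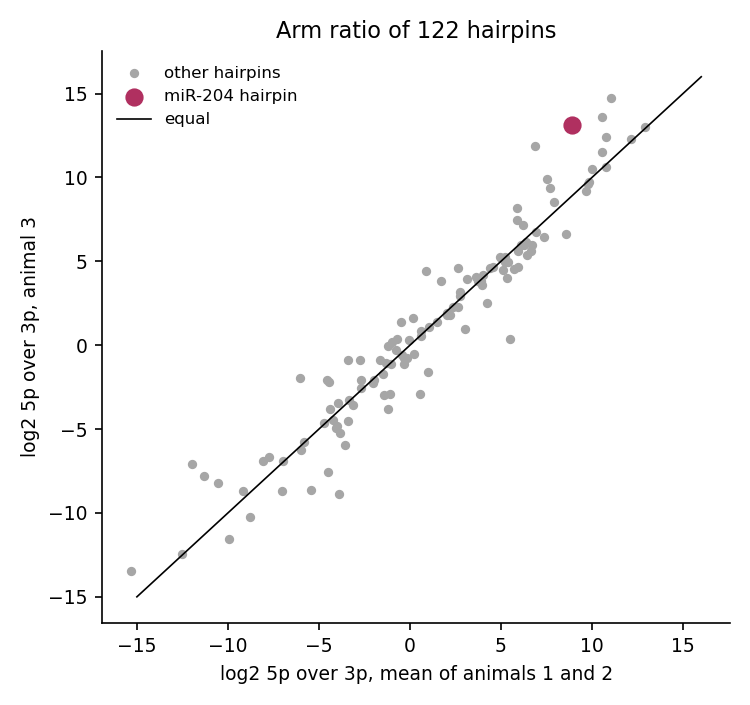
log2 of 5p over 3p counts in animal 3 against the mean of animals 1 and 2 for 122 hairpins, with a line where both are equal. The miR-204 hairpin lies at 13.11 in animal 3, above the line and above its 8.86 and 8.90 in animals 1 and 2.

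Other 3p arms were then compared in animal 3. There were 62 3p arms of 5p-biased hairpins that averaged 10 or more counts. In animal 3, 32 of these lay below the mean of the other animals, and the median log2 deviation of the 62 was -0.02. The deviation of miR-204-3p was -4.10, the lowest of the 62, and 6 of the 62 lay at -2 or below. Of all 391 miRNAs, 26 did so, or 6.65%. The deviation of miR-204-5p in animal 3 was -0.08. Among the most 5p-biased hairpins, miR-30d-3p had 16 counts in animal 1, 16 in animal 2 and 17 in animal 3, and miR-424-3p had 9, 8 and 11. miR-10a-3p, with 80, 56 and 5 counts, and miR-10b-3p, with 310, 245 and 32, were low in animal 3 as miR-204-3p was. Hairpins whose minor arm averaged 10 or more counts numbered 104. In 66 of these the major arm spanned at most 2-fold, and in 3 of the 66, the hairpins of miR-143, miR-204 and miR-10a, the minor arm spanned more than 10-fold. Without animal 3 the number was 0 of 103. These hairpins were singled out after their values were seen.

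miR-211 and miR-204-5p were then compared within libraries, since they are near-identical and their tabulated human counterpart is the same. Of the reads of the pair, miR-211 made 0.597% (Wilson 95% limits 0.564 to 0.631) for animal 1, 1.14% (1.10 to 1.19) for animal 2 and 0.693% (0.655 to 0.733) for animal 3. The mean was 0.811% ± 0.292 (SD, n = 3). No pair of intervals overlapped, and animal 2 was the highest. There were 167, 86.4 and 143 reads of miR-204-5p per read of miR-211. Reads were mapped with 0 mismatches, but the treatment of reads too short to tell the names apart is not stated, so the level of miR-211 is uncertain. Since miR-211 is at most 1.14% of the pair, the sum of both names hardly differs from miR-204-5p alone, with 47637, 54197 and 43747 CPM in animals 1, 2 and 3.

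**Figure D4:**
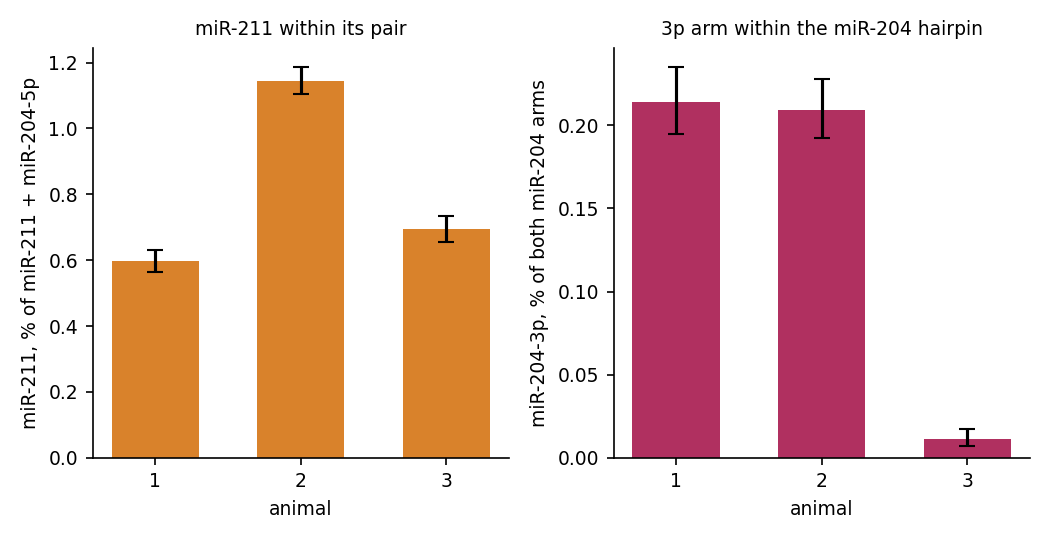
Left, miR-211 as a percent of the reads of miR-211 and miR-204-5p, and right, miR-204-3p as a percent of the reads of both miR-204 arms, by animal, with Wilson 95% intervals as error bars. miR-211 is highest in animal 2 at 1.14%, and the 3p arm is lowest in animal 3 at 0.0111%.

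The miRNAs with the most similar profile over the 3 animals were found by the Euclidean distance between log2(TMM-scaled CPM + 1) values, each centred on its own mean. With 3 libraries, such a distance is a description. The nearest to miR-204-5p were miR-335-3p (distance 0.03), miR-18b (0.04), miR-199a-3p (0.05), miR-338-5p (0.06) and miR-125b-1-3p (0.07), against a median distance of 0.58 over 390 miRNAs. All of these varied little. Some had few reads, with 44, 53 and 36 counts of miR-335-3p and 24, 32 and 20 of miR-125b-1-3p. The distance takes no account of counting error, so the order of these 5 is not resolved. miR-199a-3p, the most abundant of them and a miRNA of stromal cells, had counts of 30576, 38242 and 24864.

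The nearest to miR-211 was miR-135a-5p at a distance of 0.08, with 2576, 6624 and 2555 counts. Next were miR-875-5p (0.25), miR-1260b (0.30), miR-9-3-3p (0.30) and miR-223 (0.31), against a median of 0.99. In each of these, as in miR-211, animal 2 was highest and animal 1 lowest on this scale. The place of miR-9-3-3p rests on few reads, with 19, 57 and 27 counts. miR-204-5p was only the 66th nearest to miR-211, at 0.70. The nearest to miR-204-3p were miR-320a (0.32), miR-107-3p (0.41), miR-500a-5p (0.43), miR-502-3p (0.52) and miR-103-3p (0.89), against a median of 3.35. All of these were far lower in animal 3, on which this likeness rests, as in miR-107-3p with 25493, 31656 and 1886 counts. miR-204-5p, from the same hairpin, was the 181st nearest to miR-204-3p at 3.28.

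**Figure D5:**
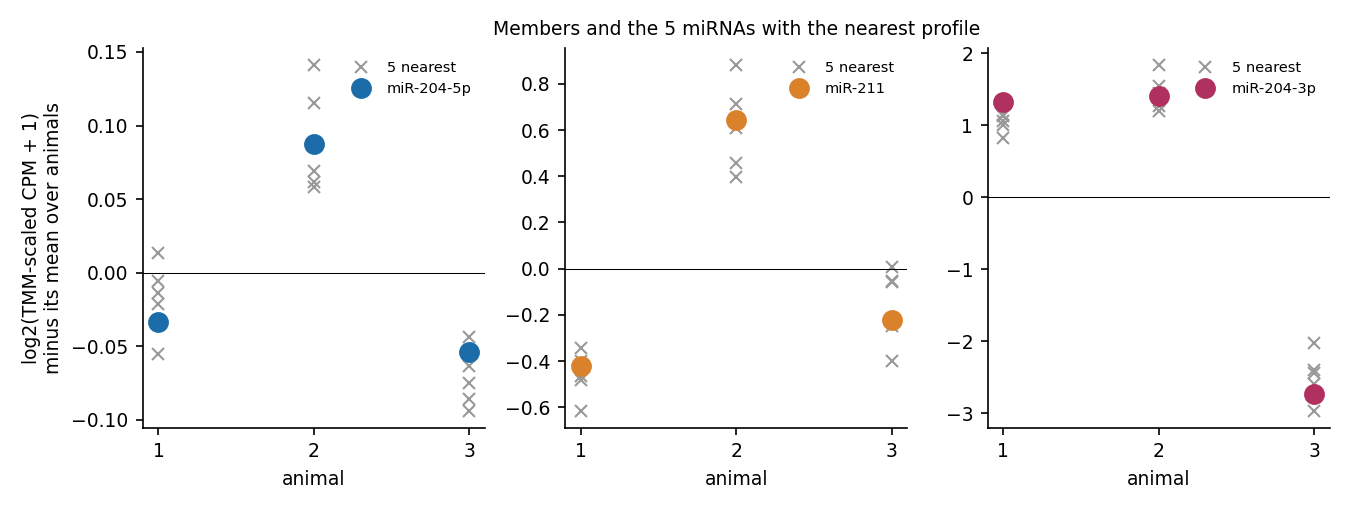
log2(TMM-scaled CPM + 1) minus its mean over the animals for each member (large points) and the 5 miRNAs with the nearest profile (crosses), by animal, on a vertical scale of its own in each panel. The points of miR-204-5p stay between -0.05 and 0.09, those of miR-211 reach 0.64 in animal 2, and those of miR-204-3p fall to -2.73 in animal 3.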

How the data were processed

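The deposited raw table lists read counts of 432 mature miRNAs in 3 libraries. Reads were mapped to M. fascicularis miRNAs allowing 0 mismatches, and miRNAs with 15 or more reads were retained, per the file headers. Total RNA had been enriched for small RNA before library preparation, per the labels' protocols. The aligner, the miRNA reference and the treatment of reads matching several names are not given in the sources used here. Normalized signal values in the second deposited table come from edgeR, per the file headers. Each is the count over its library's TMM factor, with no scaling for library size. Levels, shares and arm ratios were computed from the raw counts. TMM factors came from edgeR 4.0.16 and size factors from DESeq2 1.42.0 in R 4.3.3, and tests ran in Python with scipy 1.17.1. Chi-square tests covered all miRNAs averaging 10 or more counts, or all hairpins with an expected count of at least 5, with Benjamini-Hochberg adjustment and a threshold of 0.05. The separate samples are called animals as the design text names them. Chi-square p-values set the differences between these libraries against counting error only, so they do not measure the spread between animals. Sign-flip p-values rest on the differences within the 3 animals. The miRNAs named are the members, the kidney list, the 2 neighbours above and below each member by mean CPM, the 5 nearest profiles, and the 5 hairpins with the widest range and the 5 with the largest mean arm ratio. Marker lists are given as sums, and the erythroid, leucocyte and muscle lists had means of 5055, 1622 and 441 CPM. The members and lists were chosen with earlier results of these data known. Mature sequences were not used here, so seeds were not compared. Alternatives were other scalings, filters, pseudocounts and leaving out each animal.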

Additional observations from a re-analysis of the deposited data

How the results depend on the processing

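The levels of the members, and the mean arm ratio, stayed within 1 SD of the reported values under the scalings, pseudocounts and omissions tried, a limit that leaving out 1 of 3 animals cannot exceed. For miR-204-3p and the arm ratio this SD rests on animal 3, so the limit is wide for the other alternatives too. The mean of miR-204-3p was 70.8 CPM with TMM and 69.9 CPM with DESeq2 size factors. The mean arm ratio was 10.30 with pseudocount 0 and 10.18 with pseudocount 5. The 156 miRNAs spanning more than 2-fold became 82 at a mean count of at least 100, which tests 259 miRNAs, and between 35 and 124 with 1 animal left out, the lowest without animal 3 and 92 without animal 1. The 78 of 109 hairpins called for arm share became 55 of 112 without animal 1, 66 of 109 without animal 2 and 41 of 119 without animal 3. A test with 1 animal left out also rests on fewer reads. Hairpins ranging over more than 2 log2 units numbered 34, and 25, 27 and 3 when animal 1, 2 or 3, respectively, was left out. A range over fewer libraries cannot be wider. Without animal 3 the miR-204 hairpin ranged over 0.03. Of the 7 neighbours and kidney miRNAs, miR-204-5p exceeded 3 in every animal, and 3 to 5 with 1 animal left out, the 5 being without animal 1. The log2 difference from miR-30c-5p went from -0.017 to between -0.17 and 0.13, and that from miR-26a-5p from 0.05 to between -0.026 and 0.17, both changing sign without animal 3. The cause of these changes was not tested. The rank of miR-204-5p by span among the top 20 was 1, 4 and 7 when animal 2, 1 or 3, respectively, was left out. The alternatives for miR-211, for ranks and for ranges of arm ratios were chosen after seeing the data. No paired analysis was possible because all libraries belong to 1 group. The low count limits the precision of miR-204-3p in animal 3, where 19 counts give a wide interval.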
